A study of Rattus norvegicus with 12 samples.

Results

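The nuclear genes of oxidative phosphorylation (OXPHOS) were compared between neurons of 4 rat brain regions, complex by complex. A gene was a member where a probe set of the array carried a single gene symbol that begins with Ndufa, Ndufb, Ndufc, Ndufs or Ndufv (complex I), Sdha to Sdhd (complex II), Uqcr (complex III), Cox4i, Cox5, Cox6, Cox7 or Cox8 (complex IV) or Atp5 (complex V). This rule took 94 probe sets of 88 genes, out of 10412 genes with 1 symbol, and the probe set with the highest mean signal stood for each gene. Complex I had 36 of the genes, complex II 4, complex III 7, complex IV 15 and complex V 16. The symbols also took in 9 assembly factors (Ndufaf3, Ndufaf4, Ndufaf5, Ndufaf7, Ndufaf8 and Sdhaf1 to Sdhaf4), which help to build complexes I and II and are not subunits, and 1 pseudogene, Cox6c-ps1. Ndufa4 was kept with complex I by its symbol, although its protein is now placed in complex IV. Another 7 probe sets carry several symbols, among them those of Atp5mc1, Atp5mc2, Cox7a2, Ndufa10, Ndufs5 and Uqcrb, and were left out.

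The neurons came from untreated Fisher 344/BN F1 rats aged 6 months. They were lifted from frozen brain sections by laser capture microdissection (LCM) out of the hippocampal fields CA1 and CA3, the granule cell layer of the cerebellum (CbG) and the deeper layers of the frontal cortex (CTX), and each region had 3 arrays. CA1 and CbG are the study's vulnerable group (VUL) and CA3 and CTX its resistant group (RES), names that refer to oxidative stress, which none of these rats had received. Captured tissue can hold parts of neighbouring cells, and in such samples fewer cells of a type and less RNA per cell cannot be told apart.

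OXPHOS is the last stage of respiration in mitochondria. Complex I takes electrons from NADH and complex II from succinate, complex III passes them to cytochrome c, and complex IV hands them to oxygen. Complexes I, III and IV pump protons across the inner membrane, and complex V, the ATP synthase, lets them flow back while it makes ATP. Neurons draw most of their ATP from this chain, and complexes I and III are also known as sites where superoxide is formed. The complexes are built from many small subunits around a few catalytic ones, and most of the subunits are encoded in the nucleus.

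Promoters of these genes are known for sites of the factors NRF1, GABP (an ETS factor) and YY1, so 5 of them are shown for the members on which the results below turn. They are RefSeq sequences of the build GRCr8, from 250 bases before to 50 bases after the start of the gene, which were given for 80 of the 88 members. Capitals mark matches, on either strand, to the palindromic core of the NRF1 motif (the run in Ndufaf4), to CCGGAAG (ETS) or to AAGATGGCG (YY1). Ndufv3 and Ndufaf4 had the smallest p-values of all members with 2 labels exchanged, Uqcrq was low in 1 region apart from 1 array, and Ndufa6 and Atp5mg were the members called between VUL and RES neurons.
Ndufv3 (chr20:9613536-9613835, + strand): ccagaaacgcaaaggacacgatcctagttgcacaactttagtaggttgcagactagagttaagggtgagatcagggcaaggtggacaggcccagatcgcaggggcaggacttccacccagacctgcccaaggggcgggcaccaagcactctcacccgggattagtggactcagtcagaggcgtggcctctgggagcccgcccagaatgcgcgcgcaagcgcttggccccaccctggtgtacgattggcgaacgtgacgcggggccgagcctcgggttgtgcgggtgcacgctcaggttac
Ndufaf4 (chr5:43401545-43401844, + strand): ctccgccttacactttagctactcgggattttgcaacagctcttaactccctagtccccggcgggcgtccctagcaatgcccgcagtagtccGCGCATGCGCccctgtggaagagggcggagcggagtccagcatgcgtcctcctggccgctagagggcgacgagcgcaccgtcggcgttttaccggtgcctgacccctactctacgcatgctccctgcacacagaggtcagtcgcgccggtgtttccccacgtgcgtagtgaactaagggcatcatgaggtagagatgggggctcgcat
Uqcrq (chr10:38089929-38090228, - strand): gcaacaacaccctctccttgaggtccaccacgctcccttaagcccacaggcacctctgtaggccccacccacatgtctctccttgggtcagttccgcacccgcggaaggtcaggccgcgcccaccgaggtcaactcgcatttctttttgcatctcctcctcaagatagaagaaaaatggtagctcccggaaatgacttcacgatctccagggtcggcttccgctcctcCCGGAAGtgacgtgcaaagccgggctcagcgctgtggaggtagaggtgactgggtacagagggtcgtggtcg
Ndufa6 (chr7:115750268-115750567, - strand): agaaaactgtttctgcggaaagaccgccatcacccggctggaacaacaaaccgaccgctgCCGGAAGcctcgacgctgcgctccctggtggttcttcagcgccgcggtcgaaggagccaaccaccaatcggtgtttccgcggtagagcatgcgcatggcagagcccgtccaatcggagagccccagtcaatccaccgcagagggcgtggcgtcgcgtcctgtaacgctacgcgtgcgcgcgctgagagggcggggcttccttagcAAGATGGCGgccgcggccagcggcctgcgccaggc
Atp5mg (chr8:54130358-54130657, - strand): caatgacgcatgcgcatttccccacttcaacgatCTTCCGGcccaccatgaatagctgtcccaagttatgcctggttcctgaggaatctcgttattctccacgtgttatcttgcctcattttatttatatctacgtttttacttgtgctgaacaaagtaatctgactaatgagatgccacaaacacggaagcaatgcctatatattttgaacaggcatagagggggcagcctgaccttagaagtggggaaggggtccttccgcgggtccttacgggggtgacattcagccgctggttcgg

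Among the 80 members with a promoter, 24 (30.0%) held the ETS letters, 11 (13.8%) the YY1 letters and 5 (6.25%) the NRF1 letters. Over the 4875 genes tested with a promoter these shares were 21.0%, 4.9% and 2.36%, and over all 27457 promoters 9.22%, 1.93% and 0.932%. The ETS letters stood in 9 of the 34 members that differed between regions with the labels exchanged, and in 15 of the 39 that did not, and the YY1 letters in 1 and 9 of them. No matches to different motifs overlapped in a member promoter. A match is a run of letters and not a measured site.

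The deposited values are MAS5 signals, 1 per probe set, on a linear scale. Array medians lay between 145.5 and 199.3, and the number of arrays limits the precision. A probe set was tested where its signal was above the array's median in at least 8 of the 12 arrays, which held for 79 of the 88 members and for 7535 probe sets in all. The members that passed were 33 of complex I, 4 of complex II, 7 of complex III, 10 of complex IV, 16 of complex V and 9 assembly factors. The sums of 7 granule cell and 4 forebrain pyramidal markers went with the labels in 10 arrays. In replicate 3 of CA3 and replicate 3 of CbG these sums were those of the other region. Gabra6, a receptor subunit of granule cells, read 2568 in CA3 replicate 3 and 15.4 in CbG replicate 3, against 3379 and 1283 in the other CbG arrays and 5.6 and 38.6 in the other CA3 arrays. Nrgn, which binds calmodulin in pyramidal neurons, read 49.2 and 6451 in these arrays. Not all markers matched the other region's arrays. Tbr1, listed for pyramidal neurons, read 4.5 and 6.3 in CA3 replicates 1 and 2, and 35.8 and 53.2 in CbG replicates 1 and 2. It kept to the labels in CA3 replicate 3 (5.9) and CbG replicate 3 (50.4). Socs2, listed for CA3, was also lower in CA3 replicates 1 and 2 (5.3 and 3.7) than in CbG replicates 1 and 2 (51.8 and 30.4). All these signals were under the array medians. CA3 replicate 3 had a Purkinje sum of 2606, against 15789 and 37256 in CbG replicates 1 and 2, and the CA1 marker Wfs1 read 3769 in CbG replicate 3, against 1045 and 481 in CA3 replicates 1 and 2. Each comparison is therefore given with the arrays as labelled, with these 2 labels exchanged, and over the 10 other arrays.

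Most of the members that could be placed took the same sides as the granule cell and pyramidal sums. In 16 members the CA3 and CbG replicates 1 and 2 were at least 1.5-fold apart without overlap, and in 14 of these CA3 replicate 3 lay nearer to the CbG arrays (87.5%, against 84.8% of 3656 probe sets tested). CbG replicate 3 lay nearer to the CA3 arrays in 14 of the 16 (87.5%, against 89.9%). Another array stood out without going against its label: CbG replicate 2 gave the highest signal of 35 of the 79 members (44.3%, against 14.6% of all probe sets tested). For β-actin, the control probe set at the 3' end exceeded that at the 5' end, a gap that widens as RNA is shortened. Its log2 value was 6.52 in CbG replicate 2 and 3.85 to 5.35 in the other arrays. The GAPDH controls did not set this array apart. Their value was 2.31 in CbG replicate 2, below CTX replicates 2 and 3 (2.76 and 2.47) and CA3 replicate 3 (2.36). The part of these gaps in the members' signals was not tested. CbG replicate 2 also held the highest sum of 5 Purkinje cell markers (37256, against 15789 in CbG replicate 1 and at most 8630 elsewhere) and of 6 astrocyte markers (39581, against at most 28107), whose part was not tested either.

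**Figure D1:**
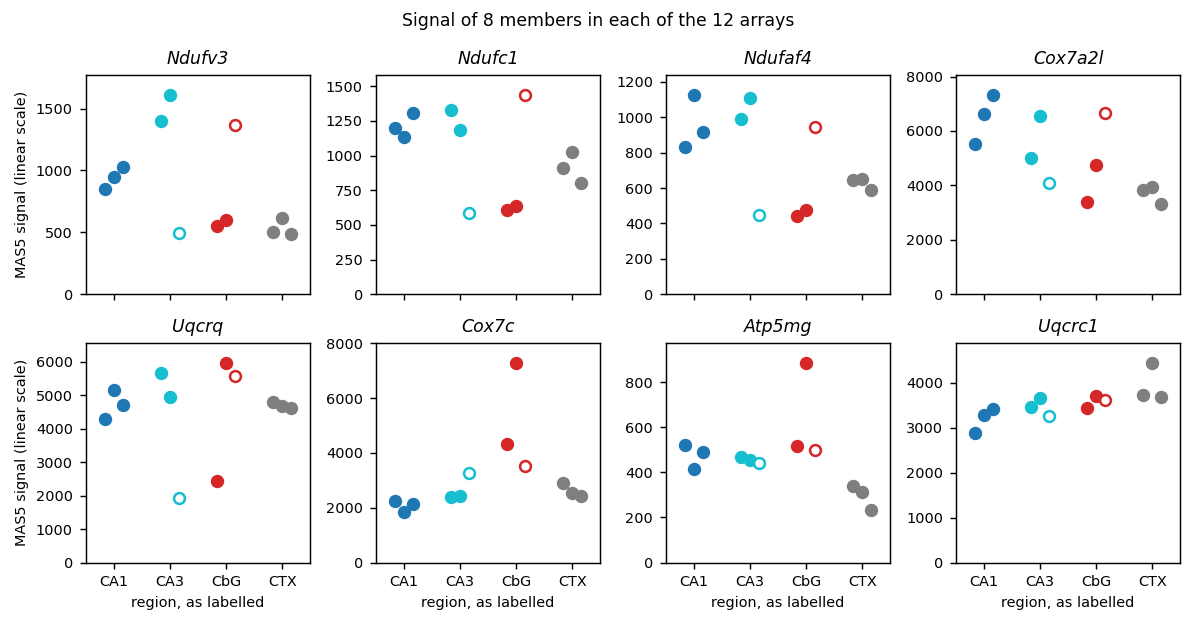
MAS5 signal (linear scale) of 8 members in each of the 12 arrays, by region as labelled, 1 point per array; open points mark replicate 3 of CA3 and of CbG. The open points of Ndufv3, Ndufc1, Ndufaf4 and Uqcrq lie with the other region, and CbG replicate 2 is the highest point of Cox7c (7286) and Atp5mg (886), while Uqcrc1 stays between 2893 and 4445.

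The first question was whether any of the 4 regions differed. With the arrays as labelled, no member was called by the moderated F-test of limma (0 of 79, against 3.2% of all probe sets tested). A call needed an adjusted p below 0.05 (Benjamini-Hochberg) and region means at least 1.5-fold apart. At an unadjusted p under 0.05 there were 11 members (13.9%, against 23.9% of all probe sets), and the smallest adjusted p was 0.0663, for Ndufaf3. With the 2 labels exchanged 36 of 79 members were called (45.6%, against 66.9% of all probe sets), and over the 10 arrays 19 (24.1%, against 60.8%). The members' shares were below the background in each arrangement.

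The OXPHOS genes were flatter across regions than most probe sets tested. The median range between the highest and the lowest region mean was 0.57 on the log2 scale over the members and 0.70 over all probe sets as labelled, and 0.63 and 0.87 with the labels exchanged. The range stayed under 1.5-fold in 36 of the 79 members (45.6%) with the labels exchanged, against 24.7% of all probe sets. The median residual SD within regions was 0.239 for the members and 0.256 for all probe sets in that arrangement, and 0.284 and 0.371 as labelled.

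The count is tied to the scaling. The CTX arrays had medians of 187.0 to 199.3, against 145.5 to 187.5 in the other 9 arrays, and centring on the medians moved the median of all probe sets tested by 0.33 for CA1 minus CTX, 0.32 for CA3 minus CTX and 0.18 for CbG minus CTX (log2, labels exchanged). Under quantile normalization, no centring or centring on the probe sets tested, 18, 19 and 19 members were called with the labels exchanged, in place of 36. These are 22.8%, 24.1% and 24.1% of the members, against 59.4%, 59.3% and 60.0% of all probe sets. Under all 4 scalings the called members were 15: Ndufv3, Ndufc1, Ndufc2 and Ndufa8 of complex I, Uqcrfs1 of complex III, Cox7a2l and Cox7c of complex IV, Atp5mg of complex V, and the assembly factors Ndufaf3, Ndufaf4, Ndufaf5, Ndufaf7, Sdhaf1, Sdhaf2 and Sdhaf4.

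**Figure D2:**
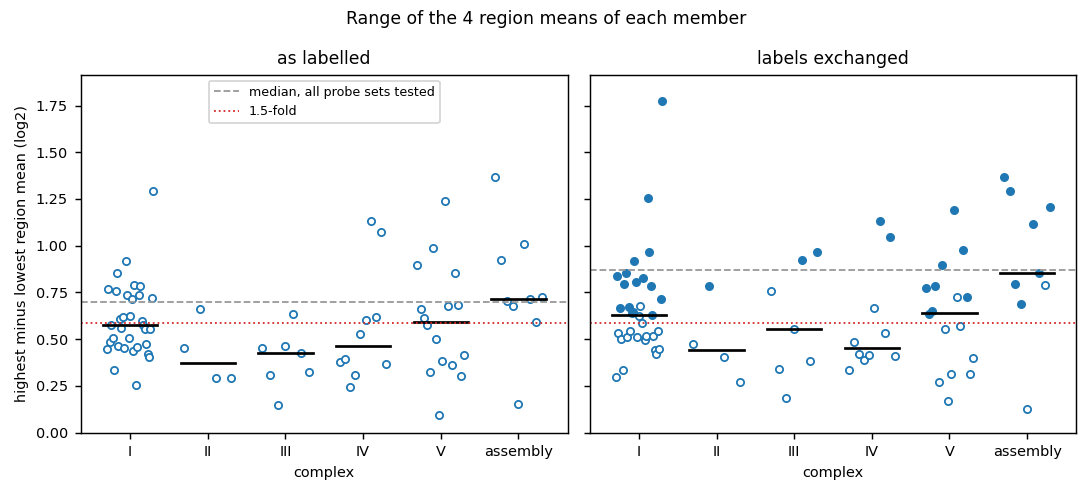
Highest minus lowest region mean of each tested member on the log2 scale, by complex, with the arrays as labelled (left) and with 2 labels exchanged (right). Filled points were called, black bars are the medians of a complex, the dashed line is the median over all probe sets tested (0.70 and 0.87) and the dotted line is 1.5-fold; medians of complexes I to V lie between 0.37 and 0.64 and all below the dashed line.

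By complex, 16 of 33 members of complex I were called with the labels exchanged (48.5%), 1 of 4 of complex II (25.0%), 2 of 7 of complex III (28.6%), 2 of 10 of complex IV (20.0%), 8 of 16 of complex V and 7 of 9 assembly factors (77.8%). Over the 10 arrays these counts were 7, 0, 0, 2, 5 and 5, and as labelled 0 in each. Of all probe sets 66.9% were called with the labels exchanged, 60.8% over the 10 arrays and 3.2% as labelled. With the labels exchanged the medians of the range were 0.63 for complex I, 0.44 for II, 0.55 for III, 0.45 for IV and 0.64 for V. The assembly factors had 0.85, and all probe sets tested 0.87. No test compared the complexes with each other, and groups of 4 to 16 genes leave such shares coarse.

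Complex I held the tested member with the widest range with the labels exchanged (Ndufv3), while as labelled the widest was that of the assembly factor Ndufaf3 (1.37). In what follows, the 3 signals of a region are those of replicates 1 to 3 as labelled. Ndufv3, a subunit of the NADH-binding module, read 851, 945 and 1027 in CA1, 1397, 1614 and 494 in CA3, 553, 602 and 1365 in CbG and 504, 620 and 488 in CTX. The signals were thus high in the hippocampus and low in cortex and cerebellum, apart from the third CA3 and CbG arrays, which were the other way round. With the labels exchanged the region means of Ndufv3 spanned 1.77 on the log2 scale (adjusted p = 7.34e-06), and over the 10 arrays 1.86 (adjusted p = 8.17e-05), against 1.29 as labelled (adjusted p = 0.317). The CA3, CA1 and other arrays then formed 3 levels that did not overlap, and CA3 was above CA1 by 0.64 (SE 0.18, adjusted p = 0.0319).

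Ndufc1, a small membrane subunit, read 1196, 1131 and 1304 in CA1, 1329, 1185 and 583 in CA3, 607, 635 and 1440 in CbG and 910, 1026 and 800 in CTX. Its low arrays were those of the cerebellum once the labels were exchanged (range 1.26, adjusted p = 0.000154, 0.00163 over the 10 arrays and 0.522 as labelled). Ndufb10, of the distal membrane arm, read 1572, 1656 and 1809 in CA1, 1653, 1540 and 1239 in CA3, 1203, 959 and 1748 in CbG and 1396, 1073 and 905 in CTX. Its hippocampal arrays were the higher ones once the labels were exchanged, and cortex and cerebellum overlapped (range 0.92, adjusted p = 0.00227). It was called under 23 of the 24 alternative settings of that arrangement, the exception being quantile normalization (range 0.54, adjusted p = 0.0299).

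Ndufa6 and Ndufc2 had another order, with CTX lowest and CbG or CA1 highest. Ndufa6, a subunit of the hydrophilic arm, read 1754, 2984 and 2014 in CA1, 1698, 1489 and 1741 in CA3, 2060, 3508 and 1630 in CbG and 1659, 1702 and 1231 in CTX. Its highest signals were CbG replicate 2 and CA1 replicate 2, and the other 10 lay between 1231 and 2060 (range 0.85, adjusted p = 0.0124 with the labels exchanged and 0.19 as labelled). Ndufc2 had 5767 and 5875 in CA3 replicate 3 and CbG replicate 1, 8986 in CbG replicate 2, and between 3166 and 4847 in the other 9 arrays. Ndufb6, another membrane subunit, and Ndufab1, the mitochondrial acyl carrier protein, were called with the labels exchanged at ranges of 0.83 and 0.64 (adjusted p = 0.00518 and 0.0314).

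Core subunits of complex I were found on both sides of the threshold. Ndufv1, which holds the flavin that takes electrons from NADH, lay between 1161 and 2264 in the 12 arrays and was not called (range 0.45, adjusted p = 0.245 with the labels exchanged). Ndufs7 and Ndufs8, which carry iron-sulfur clusters, had ranges of 0.42 and 0.54 (adjusted p = 0.272 and 0.0582). Ndufs1, Ndufs3 and Ndufv2 were called with ranges of 0.79, 0.63 and 0.72 (adjusted p = 0.0234, 0.0144 and 0.0399), and each was called under centring on the array median alone among the 4 scalings. The genes of this paragraph were named after their values were seen. Ndufa4 read 4779 in CbG replicate 2 and between 1868 and 2840 elsewhere (range 0.795, adjusted p = 0.0478), and was likewise called under 1 of the 4 scalings.

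Complex II oxidises succinate and belongs to the citrate cycle as well. Sdhb, its iron-sulfur subunit, was the member of complex II called with the labels exchanged, and read 1286, 1474 and 1252 in CA1, 1536, 2044 and 1414 in CA3, 1589, 2033 and 1866 in CbG and 1600, 1105 and 1280 in CTX. The regions overlapped as labelled (range 0.66, adjusted p = 0.249), and with the labels exchanged CA3 was highest (range 0.785, adjusted p = 0.0239). It was not called over the 10 arrays (adjusted p = 0.085). Sdha, the flavoprotein, had a range of 0.475 (adjusted p = 0.184), and the membrane anchors Sdhc and Sdhd had ranges of 0.405 and 0.273 (adjusted p = 0.363 and 0.417).

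In complex III, Uqcrq, a small subunit, read 4280, 5174 and 4718 in CA1, 5673, 4944 and 1935 in CA3, 2453, 5975 and 5570 in CbG and 4790, 4672 and 4625 in CTX. CA3 replicate 3 and CbG replicate 1 were the only low arrays, and CbG replicate 2 was the highest. The range with the labels exchanged was 0.965 (adjusted p = 0.0366), and without CbG replicate 2 it was 1.45 (adjusted p = 0.00012). Its promoter is among those shown above.

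Uqcrfs1, the Rieske iron-sulfur protein, read 898, 603 and 1116 in CA1, 866, 838 and 1430 in CA3, 1535, 1231 and 799 in CbG and 1218, 585 and 819 in CTX. The 3 highest signals were the CbG arrays of the exchanged labels (range 0.92, adjusted p = 0.0254), and the call was not made without CbG replicate 2 (0.84, adjusted p = 0.0769). The core protein Uqcrc1, named after its values were seen, was the flattest member of the complex, with 2893, 3278 and 3420 in CA1, 3452, 3651 and 3266 in CA3, 3449, 3711 and 3616 in CbG and 3738, 4445 and 3690 in CTX (range 0.19, adjusted p = 0.673). Uqcrc2, the other core protein, was not called for want of size (range 0.55, adjusted p = 0.0313), and Uqcr11 had a range of 0.34 (adjusted p = 0.353).

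In complex IV 8 of the 10 tested genes were not called by the F-test in any arrangement. Cox7a2l, a relative of Cox7a known for its part in respiratory supercomplexes, read 5533, 6637 and 7341 in CA1, 5018, 6560 and 4084 in CA3, 3398, 4765 and 6648 in CbG and 3844, 3929 and 3316 in CTX. The hippocampal arrays were higher than the rest, apart from the 2 arrays in doubt, with a range of 1.13 (adjusted p = 0.000466 with the labels exchanged, 0.00211 over the 10 arrays and 0.168 as labelled). It was called under each of the 24 alternative settings of the exchanged arrangement.

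Cox7c, a small membrane subunit, went the other way, with 2236, 1838 and 2142 in CA1, 2374, 2440 and 3251 in CA3, 4330, 7286 and 3509 in CbG and 2906, 2552 and 2437 in CTX. The CbG arrays were above the others as labelled, and with the labels exchanged only CbG replicate 3 (3509, then CA3) lay above the lowest CbG array (3251). The range was 1.07 as labelled (adjusted p = 0.134), 1.04 exchanged (adjusted p = 0.0101) and 1.25 over the 10 arrays (adjusted p = 0.00857), and 0.66 without CbG replicate 2 with the labels exchanged (adjusted p = 0.0336).

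The other tested subunits of complex IV had small ranges. Cox4i1, the regulatory subunit found in most tissues, lay between 5043 and 6665 in the 12 arrays (range 0.34, adjusted p = 0.33 with the labels exchanged). Cox6a1 had a range of 0.39 (adjusted p = 0.248), Cox6b1 of 0.41 (adjusted p = 0.23) and Cox8a of 0.41 (adjusted p = 0.222). Cox6c had 13591 in CbG replicate 2 and between 5095 and 7354 elsewhere, and was not called (range 0.66, adjusted p = 0.0582).

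In complex V, Atp5mg (subunit g of the membrane part) read 521, 413 and 492 in CA1, 466, 457 and 440 in CA3, 517, 886 and 500 in CbG and 342, 311 and 235 in CTX. The CTX arrays were below all 9 others, and this order does not depend on which of the 2 labels is right. The range was 1.24 as labelled (adjusted p = 0.0925), 1.19 exchanged (adjusted p = 0.00323) and 1.29 over the 10 arrays (adjusted p = 0.00849). It was called under each of the 24 alternative settings of the exchanged arrangement.

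Atp5pb, of the peripheral stalk, read 3031, 2906 and 3916 in CA1, 3801, 4076 and 2618 in CA3, 2841, 3189 and 3428 in CbG and 2317, 2558 and 2329 in CTX. CTX was again lowest in each arrangement, and CA3 highest with the labels exchanged (range 0.98, adjusted p = 0.00399). Atp5if1, the inhibitor that stops the enzyme from running backwards, read 486, 656 and 500 in CA1, 622, 529 and 804 in CA3, 794, 818 and 999 in CbG and 524, 539 and 423 in CTX. The 3 CbG arrays and CA3 replicate 3 gave the 4 highest signals, and the other arrays overlapped (range 0.99, adjusted p = 0.122 as labelled; 0.89, adjusted p = 0.0109 exchanged).

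The catalytic head of complex V is described here after its values were seen. Atp5f1a, the alpha subunit, had a range of 0.77 (adjusted p = 0.0323), Atp5f1b, the catalytic beta subunit, of 0.63 (adjusted p = 0.042) and Atp5f1c, the central stalk, of 0.65 (adjusted p = 0.0466), all called with the labels exchanged. Atp5f1b and Atp5f1c were not called over the 10 arrays (adjusted p = 0.082 and 0.114). Of the c-ring genes only Atp5mc3 had a probe set of its own, and it was not called (range 0.55, adjusted p = 0.0806). Atp5me was the flattest tested subunit in this arrangement, with signals between 886 and 1345 (range 0.17, adjusted p = 0.79).

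**Figure D3:**
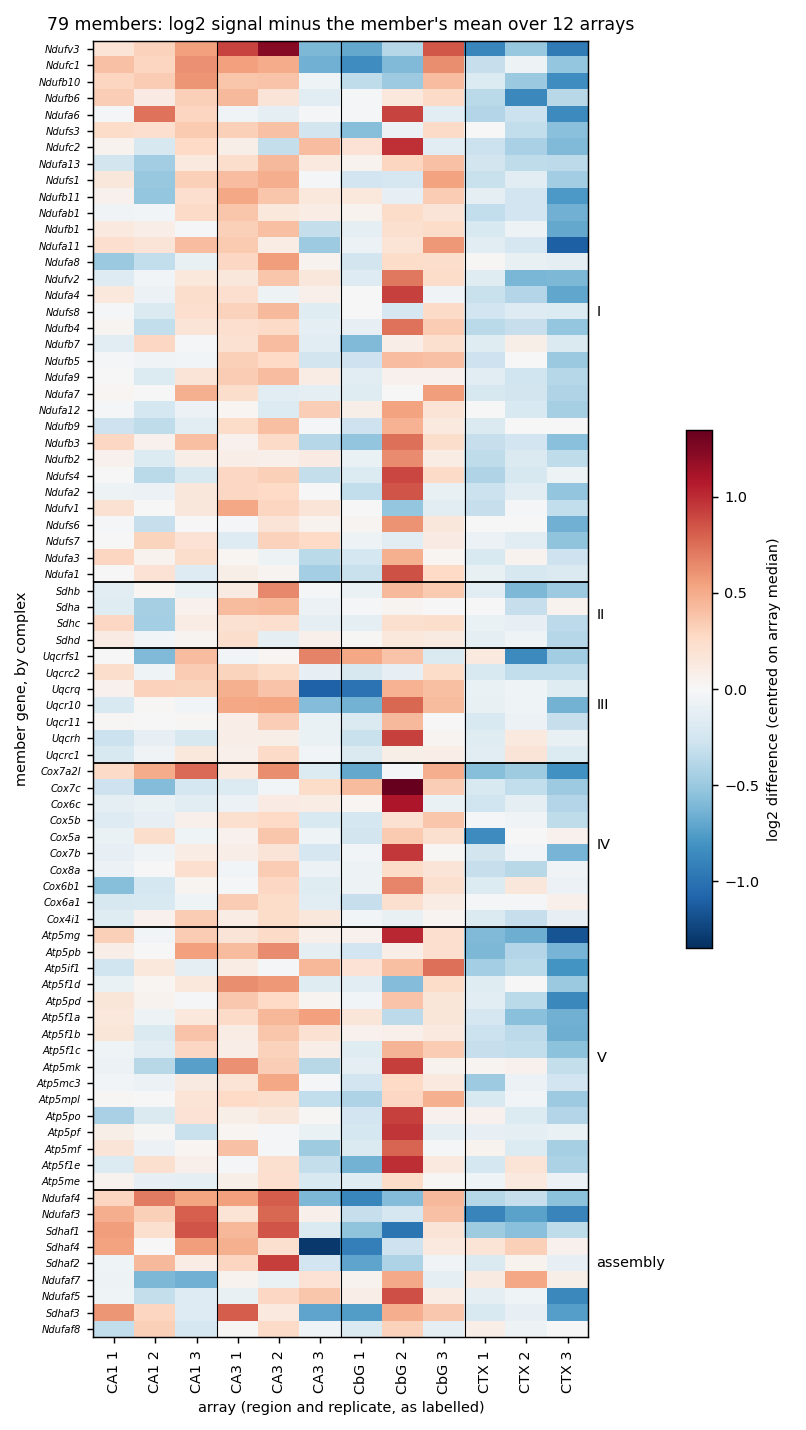
Log2 signal of the 79 tested members in each array minus the member's mean over the 12 arrays (colour), centred on the array median; rows are grouped by complex and ordered within it by the F-test p with 2 labels exchanged, and black lines divide complexes and labelled regions. Blue CTX columns at the top of complexes I and V, the exchange of colours between CA3 replicate 3 and CbG replicate 3 for Ndufv3, Ndufc1, Uqcrq and Ndufaf4, and the red column of CbG replicate 2 stand out.

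The assembly factors had the widest ranges of the groups by their median. With the labels exchanged this median was 0.85, near the 0.87 of all probe sets tested, and 77.8% of them were called, against 66.9%. They lie outside the rule for named genes and are named here after their values were seen. Ndufaf4, which acts early in the building of complex I, read 834, 1128 and 918 in CA1, 990, 1107 and 450 in CA3, 442, 479 and 943 in CbG and 648, 650 and 587 in CTX. Hippocampal, cortical and cerebellar arrays formed 3 levels that did not overlap once the labels were exchanged (range 1.29, adjusted p = 4.04e-05, 0.000257 over the 10 arrays and 0.343 as labelled).

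Ndufaf3, another complex I factor, read 1042, 944 and 1208 in CA1, 840, 1168 and 782 in CA3, 714, 668 and 1002 in CbG and 497, 533 and 508 in CTX. The CTX arrays were below all others in each arrangement, and the range of 1.37 had an adjusted p of 0.000164 with the labels exchanged. Sdhaf1, needed for the iron-sulfur subunit of complex II, read 1811, 1447 and 2062 in CA1, 1661, 2029 and 1078 in CA3, 998, 654 and 1421 in CbG and 1088, 978 and 1218 in CTX (range 1.12, adjusted p = 0.00119 exchanged). Its hippocampal arrays were the higher ones, and cortex and cerebellum overlapped.

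Sdhaf4, a factor for the flavoprotein of complex II, read 750, 523 and 705 in CA1, 710, 548 and 209 in CA3, 322, 446 and 574 in CbG and 720, 758 and 676 in CTX. Its cerebellar arrays were the lowest and did not overlap the others once the labels were exchanged (range 1.21, adjusted p = 0.0025 exchanged). Ndufaf7 was lower in CA1 than in CTX, with 277, 195 and 173 in CA1 and 391, 493 and 387 in CTX. Ndufaf8 and Sdhaf3 were not called (ranges 0.13 and 0.79, adjusted p = 0.924 and 0.0522).

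The 6 pairs of regions were compared next, each as log2 difference of region means. As labelled, limma called no member for CA1 minus CA3 (0 of 79, against 1.3% of all probe sets), CbG minus CTX (0, against 0.624%), CA3 minus CTX (0, against 1.94%), CA1 minus CbG (0, against 1.25%) and CA3 minus CbG (0, against 0.0%). At an unadjusted p under 0.05 in limma there were 1 member (1.27%, against 12% of all probe sets), 20 (25.3%, against 15.6%), 21 (26.6%, against 23.9%), 5 (6.33%, against 19.9%) and 4 (5.06%, against 4.39%) in these comparisons. The 1 call of CA1 minus CTX was Ndufaf3, higher in CA1 by 1.37 (SE 0.27, adjusted p = 0.0264), against 6.61% of all probe sets.

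CTX was the lowest region for most members. Its mean was the lowest of the 4 in 65 of 79 members as labelled and in 59 with the labels exchanged, against 50.5% and 40.7% of all probe sets tested. This order depends on the scaling: under quantile normalization, with the labels exchanged, the members' median was 0.08 for CA3 minus CTX in place of 0.48, -0.09 for CA1 minus CTX in place of 0.29, and 0.01 for CbG minus CTX in place of 0.25. Centred on the array medians, CA3, resistant like CTX, had the highest mean in 28 of 79 members as labelled, against 31.8% of all probe sets. With the labels exchanged it was highest in 52, against 32.1%. CA3 minus CTX gave 29 calls of 79 with the labels exchanged (36.7%, against 36.3% of all probe sets). Over the 10 arrays it gave 23 (29.1%, against 34.2%). All 29 were higher in CA3 (against 27.9% of all probe sets called higher), 14 of them in complex I and 8 in complex V. Ndufv3 was higher in CA3 by 1.77 (SE 0.18, adjusted p = 1.89e-05), Cox7a2l by 1.04 (SE 0.20, adjusted p = 0.00147), Atp5mg by 1.03 (SE 0.25, adjusted p = 0.00617) and Atp5pb by 0.98 (SE 0.20, adjusted p = 0.00243). Of the 29 calls, 5 were made under all 4 scalings, for Ndufv3, Ndufaf3, Ndufaf4, Cox7a2l and Atp5mg.

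CA1 minus CTX gave 13 calls with the labels exchanged (16.5%, against 34.1%) and 13 over the 10 arrays (against 34.7%), of which 12 were higher in CA1 in each (against 26.8% of all probe sets called higher, labels exchanged). The exception was Ndufaf7, lower in CA1 by -0.68 (SE 0.21, adjusted p = 0.0209). Ndufaf3 was higher by 1.37 (SE 0.20, adjusted p = 0.000229), Ndufv3 by 1.13 (SE 0.18, adjusted p = 0.000452) and Cox7a2l by 1.13 (SE 0.20, adjusted p = 0.000783). Of the 13 calls, 6 were made under all 4 scalings, and under quantile normalization 6 members were called higher and 4 lower in CA1. The CTX arrays also held more signal of glial markers, with a sum over 6 oligodendrocyte genes between 22247 and 35637 against 3910 to 5130 in CA1, and over 6 astrocyte genes between 18189 and 28107 against 10404 to 13924. The part of these markers in the members' differences was not tested.

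CbG minus CTX gave 14 calls with the labels exchanged (17.7%, against 34.0%) and 9 over the 10 arrays (11.4%, against 26.3%). Of the 14, 13 were higher in CbG (against 20.9% of all probe sets called higher), led by Atp5mg with 1.19 (SE 0.25, adjusted p = 0.00234), Cox7c with 1.02 (SE 0.26, adjusted p = 0.00855), Ndufc2 with 0.97 (SE 0.23, adjusted p = 0.00549) and Uqcrfs1 with 0.92 (SE 0.24, adjusted p = 0.00935). Sdhaf4 was lower in CbG by -1.02 (SE 0.25, adjusted p = 0.00578). The Purkinje sums, 15789, 37256 and 2606 in the CbG arrays of the exchanged labels, lay between 4217 and 5564 in CTX, and their part in these differences was not tested. Under quantile normalization 6 were called higher and 2 lower. Without CbG replicate 2, an alternative chosen after the data were seen, 9 members were called with the labels exchanged (11.4%, against 33.4%), 7 higher and 2 lower, and Uqcrq was then one of the lower ones (-0.93, adjusted p = 0.00207).

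Hippocampus and cerebellum differed in a small set of members. CA1 minus CbG gave 13 calls with the labels exchanged (16.5%, against 40.6%) and 11 over the 10 arrays (13.9%, against 39.3%), and CA3 minus CbG 15 (19%, against 45.5%) and 13 (16.5%, against 43.1%). With the labels exchanged 10 were higher in CA1 than in CbG (against 25.1% of all probe sets called higher), and 14 were higher in CA3 than in CbG (against 27.5%). Ndufaf4 was higher in CA1 by 1.20 (SE 0.17, adjusted p = 8.16e-05) and in CA3 by 1.29 (SE 0.17, adjusted p = 4.29e-05), and Ndufc1 by 1.13 (SE 0.19, adjusted p = 0.000244) and 1.26 (SE 0.19, adjusted p = 9.5e-05). Under quantile normalization the split was 6 higher and 6 lower for CA1 minus CbG, and 7 higher and 3 lower for CA3 minus CbG. The CbG arrays enter both comparisons, so that these values share samples. Cox7c was lower in CA1 than in CbG by -1.04 (SE 0.26, adjusted p = 0.0055).

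CA1 and CA3 were the closest pair. With the labels exchanged 2 members were called (2.53%, against 13.5%), Ndufa8 and Ndufv3, both lower in CA1 (against 6.0% of all probe sets called lower). Over the 10 arrays none was called (0 of 79, against 10.5%). There 8 members had an unadjusted p under 0.05 in limma (10.1%, against 24.6% of all probe sets). Ndufa8, a complex I subunit that was not chosen by the rule for named genes, was lower in CA1 by -0.67 (SE 0.19, adjusted p = 0.029). The median over the 79 members was -0.18, against 0.01 for all probe sets tested.

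**Figure D4:**
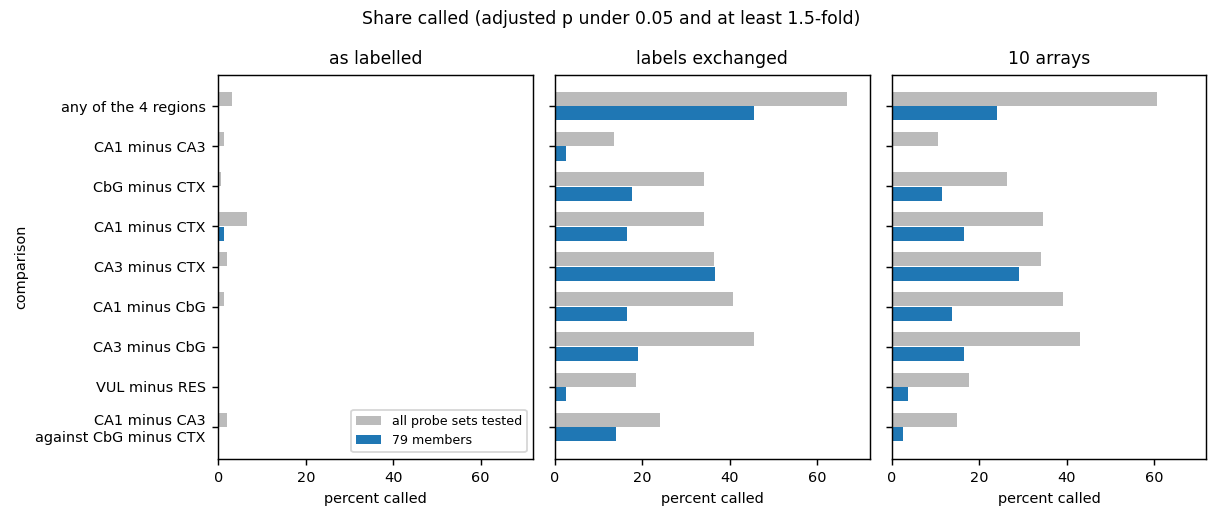
Percent of the 79 tested members (blue) and of all probe sets tested (grey) called in each comparison, with the arrays as labelled, with 2 labels exchanged and over the 10 other arrays. The members' bar is shorter than the grey bar or as short as it in each comparison except CA3 minus CTX with the labels exchanged, where they are 36.7% and 36.3%.

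The study's own question set the vulnerable against the resistant neurons. As labelled, no member was called for VUL minus RES (0 of 79, against 0.0% of all probe sets). An unadjusted p under 0.05 in limma was found for 4 members (5.06%, against 9.86% of all probe sets). A paired t-test on CA1 minus CA3 and CbG minus CTX within each replicate number gave 0 calls before and after adjustment. It took the 2 differences of a number as independent. This pairing was assumed, so the test may differ from the study's, and its share over all probe sets is not given. Exchanging the labels gave 2 called members (2.53%, against 18.5%), both higher in VUL neurons (against 10.2% of all probe sets called higher). Ndufa6 was higher by 0.62 (SE 0.16, adjusted p = 0.00889) and Atp5mg by 0.59 (SE 0.18, adjusted p = 0.0217). Over the 10 arrays Ndufc2 joined them (3 of 79, 3.8%, against 17.8%). With the labels exchanged CbG minus CTX was called for Ndufa6 and Atp5mg (0.80 and 1.19), and CA1 minus CA3 for neither. In Atp5mg CA1 and CA3 were alike, at 1.02 and 1.03 above CTX. Its CA1 minus CA3 against CbG minus CTX was called in limma (-1.20, SE 0.35, adjusted p = 0.0248).

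The VUL minus RES calls depend on several arrays and on the scaling. With the labels exchanged no member was called without CA1 replicate 3, CTX replicate 3 or replicate 3 of all regions (against 18.8%, 17.4% and 16.2% of all probe sets). There was 1 call without CA1 replicate 1, CA3 replicate 2, CbG replicate 2 or replicate 2 of all regions (against 17.2%, 18.3%, 19.3% and 19.8%). Without CbG replicate 2 and with the labels exchanged, Ndufa6 was higher by 0.52 (adjusted p = 0.0168) and Atp5mg by 0.43 (adjusted p = 0.0394), both under the 1.5-fold limit, and the 1 member then called was Sdhaf4, lower in VUL neurons by -0.63 (adjusted p = 0.00508). Under each of the 3 other scalings no member was called with the labels exchanged. Over the 79 members the median of VUL minus RES was 0.05 with the labels exchanged, against 0.08 for all probe sets, and 0.15 against 0.08 as labelled, and it was -0.07 under quantile normalization with the labels exchanged. The medians of complexes I to V lay between -0.02 and 0.10 with the labels exchanged, and no complex moved as a whole by 1.5-fold.

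The step from CA3 to CA1 was also set against the step from CTX to CbG, as the difference of the 2 log2 differences. CA3 and CbG enter with the same sign, so the exchange leaves each value as it was (median -0.5 as labelled and exchanged). It changes the residual spread alone, and with it the calls. As labelled no member was called (0 of 79, against 2.07%). At an unadjusted p under 0.05 in limma there were 15 (19%, against 17.3%). With the labels exchanged 11 were called (13.9%, against 24.0%), and over the 10 arrays 2 (2.53%, against 14.9%). Of the 11, 10 were negative (against 13.3% of all probe sets called negative). Cox7c had the largest size, with -1.43 (SE 0.37, adjusted p = 0.0135), and it was below its CA3 level in CA1 and above its CTX level in CbG.

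The complexes were also averaged over their members in each array, relative to the probe sets tested. The mean over all subunits of complexes I to V was 0.12 and 0.10 in CA3 replicates 1 and 2, -0.11, -0.14 and -0.07 in CA1 and -0.03, -0.05 and -0.22 in CTX. In the CbG arrays it was -0.02, 0.43 and 0.18, and in CA3 replicate 3 -0.18. CbG replicate 2 thus lay above every other array, and in each of complexes I to V: 0.36 for I, 0.28 for II, 0.49 for III, 0.56 for IV and 0.50 for V, against 0.04 for the assembly factors.

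**Figure D5:**
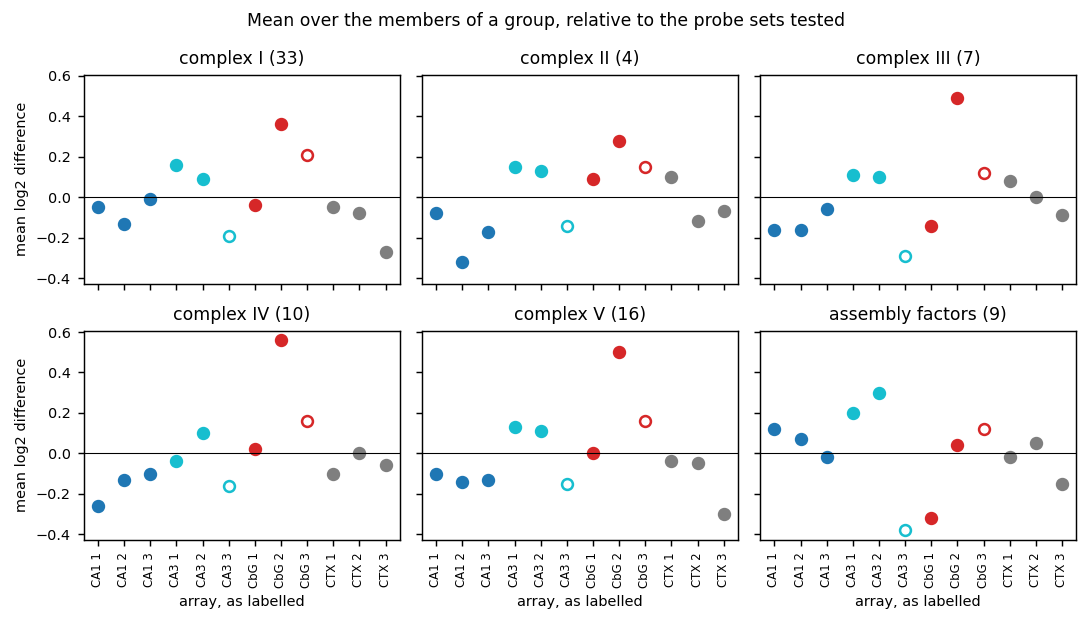
Mean over the tested members of each complex of the log2 signal minus the member's mean over 12 arrays, after centring each array on the probe sets tested, by array; open points mark replicate 3 of CA3 and of CbG. CbG replicate 2 is the highest array in complexes I to V (0.28 to 0.56) and lies at 0.04 for the assembly factors, and the other arrays lie within 0.32 of 0 for the complexes.

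The members that stood highest above the next array in CbG replicate 2 were of complexes IV and V, apart from Ndufa4, kept with complex I by its symbol. Cox6c was 1.85 times as high there as in the next array, Cox7b 1.76 times, Atp5pf 1.72 times, Atp5mg 1.70 times, and Cox7c and Ndufa4 1.68 times. Ndufs4 of complex I followed with 1.6 times. Without this array 40 members were called by the F-test with the labels exchanged, in place of 36. The share of all probe sets called by the F-test is not given for this setting. In each pair of regions the members' share was then below that of all probe sets. It ran from 3.8% against 16.6% (CA1 minus CA3) to 36.7% against 38.1% (CA3 minus CTX). Atp5f1a read 2473 there, below 9 of the other arrays, and Ndufv1 had its lowest signal (1161), so that not all members were high in it.

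The tissue isoforms of complex IV had low signals. The probe sets of 9 members did not pass the filter: Ndufa4l2, Ndufa5, Ndufb8, Cox4i2, Cox6a2, Cox6b2, Cox7a1, Cox8b and Cox6c-ps1. Cox6a2, the isoform of heart and skeletal muscle, read 10.2, 6.1 and 3.9 in CA1, 5.5, 5.6 and 6.2 in CA3, 38.4, 30.1 and 27.6 in CbG and 96.6, 79 and 150.8 in CTX. The 4 regions did not overlap except CA1 with CA3, and here CA3 replicate 3 and CbG replicate 3 kept to their labels, unlike for Gabra6 and Nrgn. Fitted with no filter, Cox6a2 was called as labelled (range 3.85, adjusted p = 0.0209, against 0.221% of all probe sets called), with the labels exchanged (range 3.75, adjusted p = 0.0362, against 28.2%) and over the 10 arrays (range 3.91, adjusted p = 0.00935, against 15.0%). All of its signals were under the array median, where MAS5 signals are least certain.

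Ndufa5, a complex I subunit under the filter and named after its values were seen, read 305, 269 and 345 in CA1, 217, 235 and 45.8 in CA3, 72.3, 119 and 274 in CbG and 126, 108 and 64.7 in CTX. It followed the pattern of Ndufv3, high in the hippocampus once the labels were exchanged (range 2.19, adjusted p = 0.0057 with no filter, and 0.469 as labelled). Cox4i2, the isoform tied to low oxygen in lung, lay between 8.1 and 111.1, Cox7a1 of muscle between 10.8 and 96.8, Cox6b2 of testis between 3.1 and 58.4 and Cox8b between 2.3 and 83.9. None of these 4 was called in any arrangement with no filter, with adjusted p-values of limma between 0.115 and 0.735.

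Other genes of mitochondrial respiration were measured for 47 of 59 listed names, and 42 passed the filter. None was called by the F-test of limma as labelled, 28 were with the labels exchanged (66.7%, against 66.9% of all probe sets) and 26 over the 10 arrays (61.9%, against 60.8%), shares near the background, with a median range of 0.82 and 0.92. As labelled, 2 of the 42 were called for CA1 minus CTX, both higher in CA1, against 6.61% of all probe sets called. With the labels exchanged 20 were higher for CA3 minus CTX (47.6%, against 27.9%) and 0 lower. For CbG minus CTX 9 were then higher (21.4%, against 20.9%) and 2 lower (4.76%, against 13.0%). Idh3a, a subunit of the citrate cycle's NAD-dependent isocitrate dehydrogenase, read 1242, 1731 and 1508 in CA1, 1979, 2138 and 776 in CA3, 792, 778 and 2254 in CbG and 1233, 1510 and 1482 in CTX. Once the labels were exchanged, Idh3a was low in the cerebellum (range 1.58, adjusted p = 1.96e-05), as was Pdha1, of the pyruvate dehydrogenase complex (range 1.26, adjusted p = 0.000446).

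The subunits of the electron transfer flavoprotein, which feeds electrons from fatty acid oxidation into the chain, differed in opposite ways. Etfa read 334, 210 and 166 in CA1, 239, 273 and 522 in CA3, 644, 791 and 244 in CbG and 306, 218 and 319 in CTX, and was high in the cerebellum (range 1.4, adjusted p = 0.0006). Etfb read 963, 891 and 838 in CA1, 1136, 1364 and 388 in CA3, 543, 716 and 882 in CbG and 529, 530 and 589 in CTX, and was high in the hippocampus (range 1.34, adjusted p = 0.000202), with the labels exchanged in each case.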

How the data were processed

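RNA of laser-captured neurons was measured on 12 Affymetrix RAE230A arrays after 2 cycles of amplification, with 3 arrays in each of 4 regions. The authors deposited 1 MAS5 signal intensity per probe set, scaled to a common target, on a linear scale, with values from 0.1 to 68797.3. Of 15923 probe sets 57 controls were left out. Gene symbols came from the platform annotation, in which 12789 probe sets had 1 symbol, 312 several and 2771 were not listed.

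Signals were log2 transformed and centred on the array median. Region means with the replicate number as a block were fitted with limma 3.58.1 (R 4.3.3), since the study's methods name a paired test. What was paired is not given in the sources used here, and the numbers were taken as the pairing. A call needed a Benjamini-Hochberg adjusted p under 0.05 over all probe sets tested and 1.5-fold. Errors are standard errors. Named were, per complex, the 3 members of smallest F-test p in each arrangement of labels, the tissue isoforms and the members called between VUL and RES. The rule also allowed up to 4 other respiratory genes per arrangement. Only 4 are given here, with their tests for the labels exchanged. Members and lists were chosen with earlier results of these data known. The p-values of limma set region differences against a moderated residual spread, pooled over the 4 regions of these samples. Its median SD over all probe sets was 0.371 as labelled and 0.256 with the labels exchanged. Same-numbered arrays deviated together little (mean r = -0.061 over 18 pairs as labelled and 0.086 exchanged, against 0.02 and -0.042 for other pairs). The script was tested on simulated data.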

Additional observations from a re-analysis of the deposited data

Results flagged for a closer look

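With the labels of replicate 3 of CA3 and of CbG exchanged, limma called CA1 minus CA3 against CbG minus CTX in 11 members. Their values are the same as labelled, since CA3 and CbG enter with the same sign. The exchange changes the residual spread alone, with a median residual SD of 0.239 over the members, against 0.284 as labelled. The value was negative for Cox7c (-1.43), Atp5if1 (-1.25), Atp5mg (-1.20), Ndufaf5 (-1.08), Ndufa13 (-1.02), Ndufv2 (-0.97), Sdhb (-0.96), Ndufb11 (-0.94), Ndufv3 (-0.86) and Atp5pd (-0.79), and positive for Sdhaf4 (1.12). Over the 10 other arrays Cox7c (-1.48) and Ndufa13 (-1.15) were called, and as labelled none was. As labelled 15 members had an unadjusted p under 0.05 in limma (19%, against 17.3% of all probe sets). Leaving out 1 array or replicate number with the labels exchanged gave 2 to 15 calls, against 12.1% to 24.6% of all probe sets. There were 2 without replicate 2 or replicate 3, and 3 without CTX replicate 3. There were 4 without replicate 1, CA1 replicate 2, CA3 replicate 2 or CbG replicate 3, and 5 without CA1 replicate 1. There were 7 without CA3 replicate 1, CA3 replicate 3 or CTX replicate 2. The largest counts were 9 without CbG replicate 2, 10 without CTX replicate 1, 13 without CA1 replicate 3 and 15 without CbG replicate 1.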

How the results depend on the processing

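With the arrays as labelled, the F-test called 0 members, against 3.2% of all probe sets. It called 1 of 88 with no filter (against 0.221% of all probe sets) and 2 with no replicate block. With the labels exchanged it called 36 (against 66.9%) and over the 10 arrays 19 (against 60.8%). Leaving out 1 array or replicate number as labelled gave 0 to 13 (13 without replicate 3, 11 without CA3 replicate 3, 7 without CbG replicate 3). With the labels exchanged the 36 calls became 18 under quantile normalization, 19 with no centring and 19 centred on the probe sets tested (chosen after seeing the data). The shares of all probe sets were then 59.4%, 59.3% and 60.0%. With no filter 13 of 88 were called (against 28.2% of all probe sets), and with no replicate block 35. The leave-outs gave 13 to 40, with 16 without replicate 1, 30 without replicate 2, 13 without replicate 3, 16 without CTX replicate 3 and 22 without CTX replicate 2. For the F-test leave-outs and the fits with no block, shares of all probe sets are not given. The same holds for the pairs as labelled in the alternatives below. Such counts are therefore not a result about the members. For the pairs, as labelled, the counts were as follows. CA1 minus CA3 gave 0, 2 exchanged and 0 to 1 in the leave-outs. CbG minus CTX gave 0, 1 with no replicate block, 14 exchanged, 9 over the 10 arrays and 0 to 4 in the leave-outs. CA1 minus CTX gave 1, 4 with no replicate block, 13 exchanged, 13 over the 10 arrays and 0 to 9 in the leave-outs. CA3 minus CTX gave 0, 1 with no filter, 2 with no replicate block, 29 exchanged, 23 over the 10 arrays and 0 to 11 in the leave-outs. CA1 minus CbG gave 0, 13, 11 and 0 to 10, and CA3 minus CbG 0, 15, 13 and 0 to 12, in the order as labelled, exchanged, 10 arrays and leave-outs. VUL minus RES gave 0, 2 exchanged and 3 over the 10 arrays. The difference of differences gave 0, 11 exchanged, 2 over the 10 arrays and 0 to 2 in the leave-outs. With the labels exchanged the leave-outs, chosen after seeing the data, gave 4 to 19 calls for CbG minus CTX (against 21.8% to 34.6% of all probe sets). They gave 10 to 29 for CA3 minus CTX (18.6% to 38.1%) and 0 to 4 for VUL minus RES (16.2% to 20.2%). The difference of differences gave 2 to 15 (12.1% to 24.6%). The cause of these shifts was not tested, apart from the difference of differences, where the exchange changes the residual spread alone. The values followed for the named genes were ranges of region means, which have no sign, so a reversal of direction could not be seen. Exchanged, 555 of these values kept their side of the threshold, 87 lost it and 6 gained it. With 3 arrays a region, low signals limit the precision.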
